A study of Mus musculus with 3 samples.

Results

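The Adamts, Mmp and Timp genes described here were 9 genes taken by symbol from a list: the secreted proteases Adamts1, Adamts4 and Adamts9, the matrix metalloproteinases Mmp2, Mmp14 and Mmp15, and the inhibitors Timp1, Timp2 and Timp3. All 9 were among the 32285 genes of the files. They were measured in lung endothelial cells (ECs) of wild-type C57BL/6 mice, young adult males per the study's methods, in 3 droplet libraries of 3′ transcript ends with 1 library per group. The control mice received PBS through the tail vein and were taken after 6 h. The other mice received 200000 B16-F10 cells in 100 µl by the same route and were taken after 6 h or 30 h. B16-F10 is a mouse melanoma line that colonizes the lungs of this strain. No PBS group was taken at 30 h, so time and treatment cannot be told apart there. The cells were PECAM1+ PTPRC- cells sorted after a warm collagenase digestion, and dye-labelled melanoma cells were added to the 6 h library. Each library pooled mice (2 per treatment by the labels, a number that the study's methods give differently), so no spread between mice was measured. No test and no p-value was therefore possible, and all intervals below are 95% intervals that cover counting error only. They treat the RNA molecules counted in a cell as independent, which they are not, so they are too narrow.

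Proteases of the ADAMTS family are secreted and cut matrix proteins. ADAMTS1, ADAMTS4 and ADAMTS9 cleave versican and aggrecan, large proteoglycans that hold water and hyaluronan around cells. MMP2 is a secreted gelatinase that degrades collagen IV of the basement membrane. MMP14 and MMP15 sit in the cell membrane, and MMP14 activates pro-MMP2 in a complex with TIMP2. TIMPs bind the active site of metalloproteinases and block it, and TIMP3 stays bound to the matrix and also inhibits ADAMTS proteases and ADAM17. In vessels these enzymes and inhibitors set how fast the basement membrane is remodelled when ECs sprout or when cells cross the wall.

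Positions are from the GENCODE M21 annotation of GRCm38, the assembly also called mm10. Adamts1 lies on chr16:85793827-85803113 and Adamts9 on chr6:92772699-92943492, both on the minus strand. Adamts4 lies on chr1:171250421-171260637, Mmp2 on chr8:92827291-92853420, Mmp14 on chr14:54431612-54445364 and Mmp15 on chr8:95352268-95375080, all on the plus strand. Timp2 lies on the minus strand at chr11:118301069-118355740. Timp1 (chrX:20870166-20874735) and Timp3 (chr10:86300372-86349506) lie on the plus strand, each wholly inside a synapsin gene, Syn1 and Syn3, that is read from the opposite strand. Whether the counting used strand is not given in the sources used here. Syn3 was counted at 26.02 CPM in control ECs, 30.6 CPM at 6 h and 27.6 CPM at 30 h.

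RefSeq promoter windows on GRCm38.p6 were found for 7 of the 9 genes. The 250 bases before the RefSeq start site are shown for Adamts1, Adamts9 and Timp1, which were all higher at 6 h, and all run 5′ to 3′ on the strand of the gene. Capitals mark matches to the motifs searched, on either strand.
Adamts1, chr16:85803114-85803363: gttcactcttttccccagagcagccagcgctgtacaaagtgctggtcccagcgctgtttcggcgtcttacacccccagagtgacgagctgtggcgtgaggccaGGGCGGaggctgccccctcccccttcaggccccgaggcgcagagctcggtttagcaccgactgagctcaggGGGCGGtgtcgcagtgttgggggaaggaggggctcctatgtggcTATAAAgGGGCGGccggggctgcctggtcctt
Adamts9, chr6:92943535-92943784: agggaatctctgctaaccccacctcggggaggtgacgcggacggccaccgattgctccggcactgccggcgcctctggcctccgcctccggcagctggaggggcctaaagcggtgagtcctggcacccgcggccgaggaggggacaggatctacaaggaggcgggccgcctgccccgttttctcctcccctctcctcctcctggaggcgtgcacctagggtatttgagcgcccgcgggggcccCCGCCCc
Timp1, chrX:20869916-20870165: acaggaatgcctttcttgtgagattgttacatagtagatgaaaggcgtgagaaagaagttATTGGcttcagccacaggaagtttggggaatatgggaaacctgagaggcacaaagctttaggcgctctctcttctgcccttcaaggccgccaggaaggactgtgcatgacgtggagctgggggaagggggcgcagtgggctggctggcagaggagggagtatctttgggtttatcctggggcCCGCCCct

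The motifs were searched on both strands with overlaps allowed. They were the TATA box (TATAAA), the GC box (GGGCGG), the CCAAT box (CCAAT), the AP-1 site (TGANTCA), the STAT site (TTCNNNGAA), the NF-kB site and the CArG box. A GC box stood in each of the 7 windows, against 32.7% of the 32851 windows of the table. The 7 windows were 54.4% to 71.2% GC, against a median of 52.4% over all windows. The shares were not adjusted for GC content. Adamts1 held 3 GC boxes and a TATA box at position -32, a motif found in 12.4% of all windows and in no other of the 7. None of the 7 windows held an AP-1, STAT, NF-kB or CArG match, motifs that 6.75%, 7.02%, 3.90% and 1.47% of all windows hold. A match describes letters only.

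Endothelial barcodes were those with 1000 to 5000 genes, under 20% mitochondrial UMIs and at least 2 UMIs of Pecam1 and Cdh5 together. A UMI marks 1 captured RNA molecule. There were 11231 such barcodes in the library of control mice, 10583 at 6 h and 9278 at 30 h, with medians of 7782 to 8676 UMIs. The libraries in pairs shared 22 to 38 endothelial barcode sequences, and none was in all 3. Levels are given as CPM, the UMIs of a gene per 1000000 UMIs summed over the barcodes of a group. Summed levels of 5 endothelial genes, Pecam1 and Cdh5 of the rule among them, were 6226 to 7437 CPM. Summed markers of epithelial cells were at 841, 612 and 385.5 CPM in control, 6 h and 30 h, those of red cells at 3243, 2115 and 827 CPM and those of melanoma cells at 1.65, 14.6 and 1.33 CPM. Summed markers of fibroblasts were at 23.4 to 31.2 CPM in these barcodes and those of pericytes and smooth muscle at 79.1 to 90.6 CPM. The summed level of 12 immediate early genes was 9415 CPM in control ECs, 12805 CPM at 6 h and 6830 CPM at 30 h, and that of 5 heat shock genes was 331, 730 and 396 CPM. These levels moved with those of several members below, and their part in them was not tested.

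Across all ECs, 3 of the 9 genes were at least 1.5-fold higher at 6 h than in the control library (Adamts4, Adamts9 and Timp1) and 1 was at least 1.5-fold lower (Mmp2). Among the 10175 genes that averaged 5 CPM or more, 2.06% were as much higher and 1.36% as much lower. Only 6 members passed that limit, since Adamts4, Mmp2 and Timp1 were below it, and of those 6 Adamts9 alone was past 1.5-fold. Among the 14767 genes under 5 CPM with a UMI, 4.6% were as much higher and 4.58% as much lower, with counting intervals off 0. At 30 h, Mmp15 was the 1 member at least 1.5-fold higher than in the control library and none was as much lower, against 4.85% and 5.01% of the 10175 genes. Between 30 h and 6 h, 2 members were at least 1.5-fold higher (Mmp2 and Mmp15) and 3 lower (Adamts4, Adamts9 and Timp1), against 5.21% and 5.28% of the 10175 genes. For this comparison the share of genes under 5 CPM was not counted. Among the 6 members that passed, 1 was higher (Mmp15) and 1 lower (Adamts9). The median log2 ratio of the 6 members that passed was 0.19 at 6 h and 0.28 at 30 h against control, while that of the 10175 genes was -0.01 and -0.07. These comparisons share the control or the 6 h library. The members were chosen with earlier results of these data known, so the contrast with all genes is a description.

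**Figure D1:**
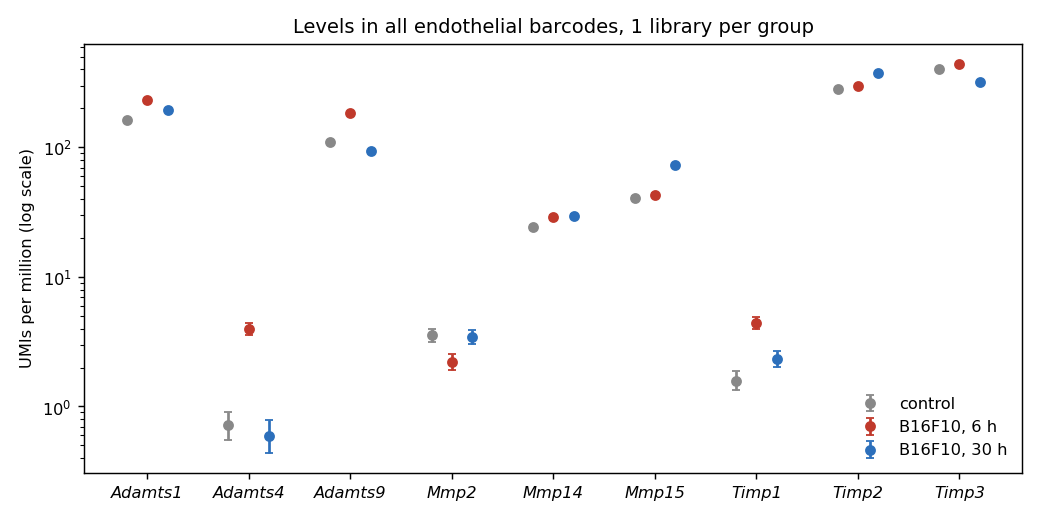
Level of each of the 9 genes in all endothelial barcodes, in CPM on a log axis, with points for the control, 6 h and 30 h libraries and bars for 95% counting intervals. Adamts1, Adamts4, Adamts9, Timp1 and Timp3 have their highest point at 6 h, and Mmp15 and Timp2 at 30 h.

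Barcodes were further gated into classes by how many of 6 markers per class had a UMI. General capillary cells (gCap), the main capillary cell and a source of new capillary cells, numbered 5123 to 6722 per library. Aerocytes (aCap), the large thin cells of the gas exchange surface, numbered 1369 to 1676, venous cells 437 to 576, arterial cells 112 to 199 and lymphatic cells (LEC) 54 to 70. Between 1756 and 2076 barcodes fell in no class. The gates rest on markers fixed with earlier results of these data known, and the number of markers each gate asks for was set on the marker counts.

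Adamts9 showed the largest difference at 6 h among the members above 5 CPM. Its level over all classes was 109.7 CPM in control ECs, 183.2 CPM at 6 h and 94.3 CPM at 30 h. The 6 h library thus stood above the other two, and the 30 h library lay somewhat below control. The log2 ratio of 6 h to control was 0.74 (0.70 to 0.78) and that of 30 h to control was -0.22 (-0.26 to -0.18). After each barcode was thinned to 2000 UMIs, 16.2% of endothelial barcodes of control mice, 22.8% at 6 h and 14.2% at 30 h had an Adamts9 UMI, and without thinning 38.1%, 47.9% and 36.6%. Among barcodes with epithelial, leukocyte or platelet markers thinned in the same way, 2 of 39, 5 of 65 and 0 of 45 had one, with exact upper limits of 17.3%, 17.1% and 7.87%. The limit for the control library lies above its endothelial share. Their median depth before thinning was 2553 to 5178 UMIs.

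By class, Adamts9 was highest in gCap in the control library, at 133 CPM, then vein at 94.7 CPM, LEC at 76.4 CPM, aCap at 52.8 CPM and artery at 27.2 CPM. The counting intervals of vein and LEC overlapped, and so did those of LEC and aCap, since 45 UMIs carried the LEC value. At 6 h it was 221 CPM in gCap, 137 CPM in vein, 107 CPM in artery, 71.3 CPM in LEC and 65.2 CPM in aCap. The arterial value came from 109 UMIs against 34 in the control library and gave the largest class ratio, 3.94-fold (log2 1.98, 1.41 to 2.58). The ratio was 1.66-fold in gCap, 1.45-fold in vein and 1.24-fold in aCap. In LEC it was -0.10 on the log2 scale (-0.81 to 0.59), an interval that includes both no difference and the size seen in vein. At 30 h Adamts9 was below control in gCap (123 CPM), aCap (39.1 CPM) and vein (69.8 CPM), with log2 ratios of -0.12, -0.43 and -0.44. In artery it was 40.4 CPM at 30 h, and the interval of the log2 ratio to control, -0.02 to 1.20, included 0.

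The level also varied within gCap. Barcodes in which Pim3, Bcl3 and Tmem252 all had a UMI numbered 232 in control ECs, 741 at 6 h and 207 at 30 h. Adamts9 was at 226, 399 and 244 CPM in them and at 129, 192 and 116 CPM in the other gCap barcodes. The paper names these 3 genes and Adamts9 among the top markers of its reactive capillary cluster, found in data that include these libraries. The comparison is therefore a description. It was thus higher in the triple-positive barcodes of each library, the control library included. In the other gCap barcodes the 6 h level was still the highest of the 3. The triple-positive barcodes were also deeper, with medians of 9238 to 9774 UMIs against 7302 to 8100.

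Adamts1, whose transcript is known to be induced early by stress and inflammatory signals, was at 162 CPM in control ECs, 231 CPM at 6 h and 195 CPM at 30 h. The order was 6 h, then 30 h, then control, with no overlap of the counting intervals. Its log2 ratio to control was 0.52 (0.49 to 0.55) at 6 h, or 1.43-fold, and 0.27 (0.24 to 0.30) at 30 h. In the control library it was highest in vein, at 267 CPM, then 192 CPM in gCap, 139 CPM in artery, 61.1 CPM in LEC and 43.8 CPM in aCap. LEC and aCap did not differ beyond their counting intervals. At 6 h it was 399 CPM in vein, 264 CPM in gCap, 182 CPM in artery, 63.6 CPM in aCap and 34.5 CPM in LEC. The 6 h ratio was close to the same in vein (log2 0.58), aCap (0.54) and gCap (0.46). In artery it was 0.39 (0.08 to 0.69), and in LEC the interval, -1.80 to 0.08, included 0. At 30 h the classes parted: log2 ratios to control were 0.49 (0.36 to 0.63) in aCap and 0.34 (0.30 to 0.38) in gCap, but 0.04 (-0.06 to 0.14) in vein. The difference between classes was not tested.

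Empty droplets, which hold free RNA and are here barcodes of 10 to 100 UMIs, give the background. Adamts1 was at 78.7 CPM in those of the control library, at 138 CPM at 6 h and 114 CPM at 30 h, and Adamts9 at 31.9, 74.9 and 38.7 CPM. Both were below the endothelial level in every library. With the free RNA subtracted, the log2 ratio of 6 h to control was 0.53 for Adamts1 and 0.76 for Adamts9. The subtraction took off the empty-droplet profile scaled to 4.5%, 7.6% and 5.5% of the UMIs in control, 6 h and 30 h. These are upper estimates from lung epithelial genes. Where a gene has like levels in empty droplets and ECs, such a subtraction can move its ratio little.

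Adamts4 was scarce. It had 65 UMIs in the control library (0.715 CPM), 346 at 6 h (3.96 CPM) and 48 at 30 h (0.589 CPM), so that the 6 h level was 5.54-fold that of control (log2 2.47, 2.08 to 2.87). Most of these UMIs sat in few barcodes. At 6 h, 56 barcodes with at least 2 Adamts4 UMIs held 259 of the 346, and a single barcode had up to 30. In the control library 10 barcodes held 37 of 65, and at 30 h 8 barcodes held 21 of 48. Since UMIs of a barcode are not independent, the counting interval of Adamts4 is too narrow. This limit applies to the other members as well. At 6 h, barcodes with at least 2 UMIs of the gene held 94.8% of Timp3 UMIs (up to 149 in 1 barcode). For Adamts9 they held 87.1% (up to 69). Without the barcodes of at least 2 Adamts4 UMIs in any library, an alternative chosen after seeing the data, the Adamts4 log2 ratio of 6 h to control was 1.70. By class it was at 0.469, 2.09 and 0.378 CPM in gCap of control, 6 h and 30 h, and at 0.906, 13.7 and 1.02 CPM in unclassed barcodes, the largest 6 h ratio (log2 3.91). In vein, 21, 23 and 1 UMIs gave 3.46, 4.95 and 0.196 CPM. In LEC, 3, 3 and 12 UMIs gave 5.09, 6.90 and 22.1 CPM, with a 30 h log2 ratio of 2.11 (0.22 to 4.58) where that of vein was -4.14 (-9.51 to -1.501). Empty droplets held Adamts4 at 0 CPM in control, 5.76 CPM at 6 h (4 UMIs, 1.57 to 14.7) and 0.379 CPM at 30 h, and at this depth the 6 h background could not be told apart from the endothelial level. With the free RNA subtracted the 6 h log2 ratio was 2.35.

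Of the 56 barcodes, 31 were in no class, 15 in gCap, 6 in vein, 3 in aCap and 1 in LEC. They held Pecam1 at 666 CPM and Cdh5 at 1706 CPM, against 1140 and 1583 CPM in barcodes of the same library without Adamts4. These are the genes of the rule that chose endothelial barcodes. Pdgfrb, which marks pericytes, was at 1.66 CPM in them (1 UMI) against 7.87 CPM, and Col1a1, which marks fibroblasts, at 28.2 CPM (17 UMIs) against 3.80 CPM. In the 10 such barcodes of the control library, Pdgfrb was at 181 against 8.86 CPM and Col1a1 at 94.6 against 4.78 CPM. With barcodes holding RNA of other cells removed from all libraries, the Adamts4 log2 ratio to control was 3.63 at 6 h and 1.03 at 30 h, and 2.90 and 0.32 when red-cell and epithelial markers were not used for this, an alternative chosen after seeing the data. Barcodes with fibroblast markers, outside the endothelial set, held Adamts4 at 27.9, 124 and 2.41 CPM and Timp1 at 45.1, 184 and 67.4 CPM in control, 6 h and 30 h. The summed fibroblast markers in ECs were lower at 6 h (23.4 CPM) than in the control library (31.2 CPM). The part of fibroblast RNA in the endothelial levels of Adamts4 and Timp1 was not tested. In the 56 endothelial barcodes with Adamts4 the cytokine gene Csf2 was at 527 CPM against 3.93 CPM in barcodes without it, and the activin subunit gene Inhbb at 571 CPM against 21.5 CPM. The EGF-family ligand gene Hbegf was at 1088 CPM against 44.3 CPM. These 3 genes were chosen after their values had been seen.

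Other members of the set were also higher in the 56 barcodes than in barcodes of the 6 h library without Adamts4. Timp1 was at 123 CPM against 3.47 CPM, Mmp14 at 218 against 26.6 CPM and Timp3 at 1540 against 429 CPM. Adamts1 was at 475 against 228 CPM and Adamts9 at 382 against 181 CPM. Mmp15 was at 39.9 CPM (25.5 to 59.3) against 43.1 CPM, a difference within the counting interval. Timp2 was lower, at 218 against 298.5 CPM. These barcodes were picked by Adamts4 in the same cells, so the values are a description.

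**Figure D2:**
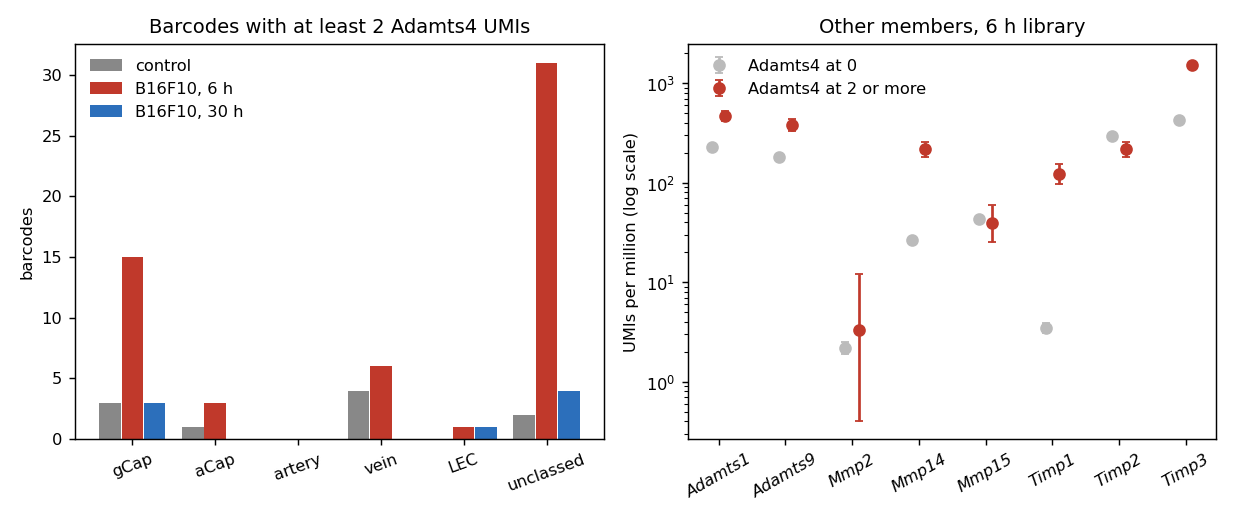
Left, number of barcodes with at least 2 Adamts4 UMIs by class and library, where the 6 h library has 31 in no class and 15 in gCap. Right, level of the other 8 genes in the 6 h library in CPM on a log axis, with 95% counting intervals, for barcodes with Adamts4 at 0 and at 2 or more UMIs; Timp1 and Mmp14 lie furthest apart.

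Mmp15, a membrane metalloproteinase, showed the largest difference at 30 h. It was at 40.6 CPM in control ECs, 43.0 CPM at 6 h and 73.1 CPM at 30 h. The 30 h library stood apart from the other two, which lay close together. The log2 ratio to control was 0.08 (0.02 to 0.15) at 6 h and 0.85 (0.79 to 0.91) at 30 h, or 1.802-fold. The ratio of 30 h to 6 h was 1.70-fold. In the control library Mmp15 was highest in gCap (49.2 CPM), then vein (30.6 CPM), artery (22.4 CPM), aCap (20.4 CPM) and LEC (8.49 CPM from 5 UMIs). Artery overlapped vein, aCap and LEC in their counting intervals. At 30 h it was 86.6 CPM in gCap, 56.4 CPM in vein, 55.8 CPM in aCap, 29.8 CPM in artery and 5.515 CPM in LEC. The largest class ratio at 30 h was in aCap, at 2.73-fold (log2 1.45, 1.27 to 1.63), followed by vein at 1.84-fold and gCap at 1.76-fold. The arterial log2 ratio was 0.41 with an interval of -0.26 to 1.12, so no difference was detectable there at this depth. Mmp15 in empty droplets of the control library was at 45.6 CPM, against 30.3 CPM at 6 h and 83.8 CPM at 30 h, as high as in ECs at control and 30 h. Barcodes with epithelial markers held it at 73.5, 91.6 and 92.2 CPM. With the free RNA subtracted, the log2 ratio of 30 h to control was 0.85. With such like levels in empty droplets and ECs the subtraction could move it little, and the part of free RNA was not tested.

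Mmp14, the activator of pro-MMP2, was highest in the lymphatic class. LEC held it at 251 CPM in control mice, 242 CPM at 6 h and 267 CPM at 30 h, and no other gated class exceeded 33.1 CPM in any library. In the control library artery (30.4 CPM) and gCap (25.5 CPM) overlapped, and so did gCap and vein (20.6 CPM), while aCap was lowest at 11.7 CPM. The control ratio of LEC to aCap was 21.5-fold. Across all ECs Mmp14 was at 24.2, 28.8 and 29.5 CPM in control, 6 h and 30 h, with log2 ratios to control of 0.26 (0.17 to 0.34) and 0.29 (0.21 to 0.37). In LEC both ratios had intervals that included 0. Empty droplets held Mmp14 at 20.5, 33.1 and 32.2 CPM, with counting intervals that include the endothelial level in each library, and with the free RNA subtracted the log2 ratios were 0.23 and 0.27. The unclassed barcodes had the largest 6 h ratio, at 43.4 CPM against 26.2 CPM (log2 0.73). The 56 barcodes with at least 2 Adamts4 UMIs, 31 of them unclassed, held 131 of the 2518 Mmp14 UMIs at 6 h. In barcodes without an Adamts4 UMI, Mmp14 was at 26.6 CPM at 6 h against 24.0 CPM in control.

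Mmp2, the gelatinase, was highest in the venous class. Vein held it at 30.3 CPM in control mice, 25.2 CPM at 6 h and 39.9 CPM at 30 h. In gCap it was at 0.609 to 0.723 CPM and in aCap at 0.425 to 0.615 CPM. LEC had 0 UMIs in each library, which a level of up to 6.27 to 8.48 CPM would allow by the exact interval. Over all classes it was at 3.53 CPM in control ECs, 2.22 CPM at 6 h and 3.45 CPM at 30 h. The 6 h value gave a log2 ratio of -0.67 (-0.93 to -0.41). Within vein that ratio was -0.27 (-0.61 to 0.08), within the counting error, and at 30 h it was 0.40 (0.10 to 0.69). In unclassed barcodes it was at 5.93, 2.35 and 3.15 CPM, a 6 h log2 ratio of -1.34, and there the summed fibroblast markers were at 96.8, 63.1 and 70.4 CPM. Barcodes with fibroblast markers held Mmp2 at 183, 196 and 115.5 CPM, those with pericyte and muscle markers at 143.5, 0 and 0 CPM and those with epithelial markers at 51.9, 18.6 and 1.76 CPM, and their part in the ratio was not tested. Venous barcodes made up 5.13% of control ECs, 4.13% of ECs at 6 h and 5.05% at 30 h. With the classes weighted as in the control library the 6 h log2 ratio was -0.54. Mmp2 in empty droplets was at 7.58 to 10.1 CPM, above the level over all ECs in each library, and with the free RNA subtracted the ratio was -1.06.

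**Figure D3:**
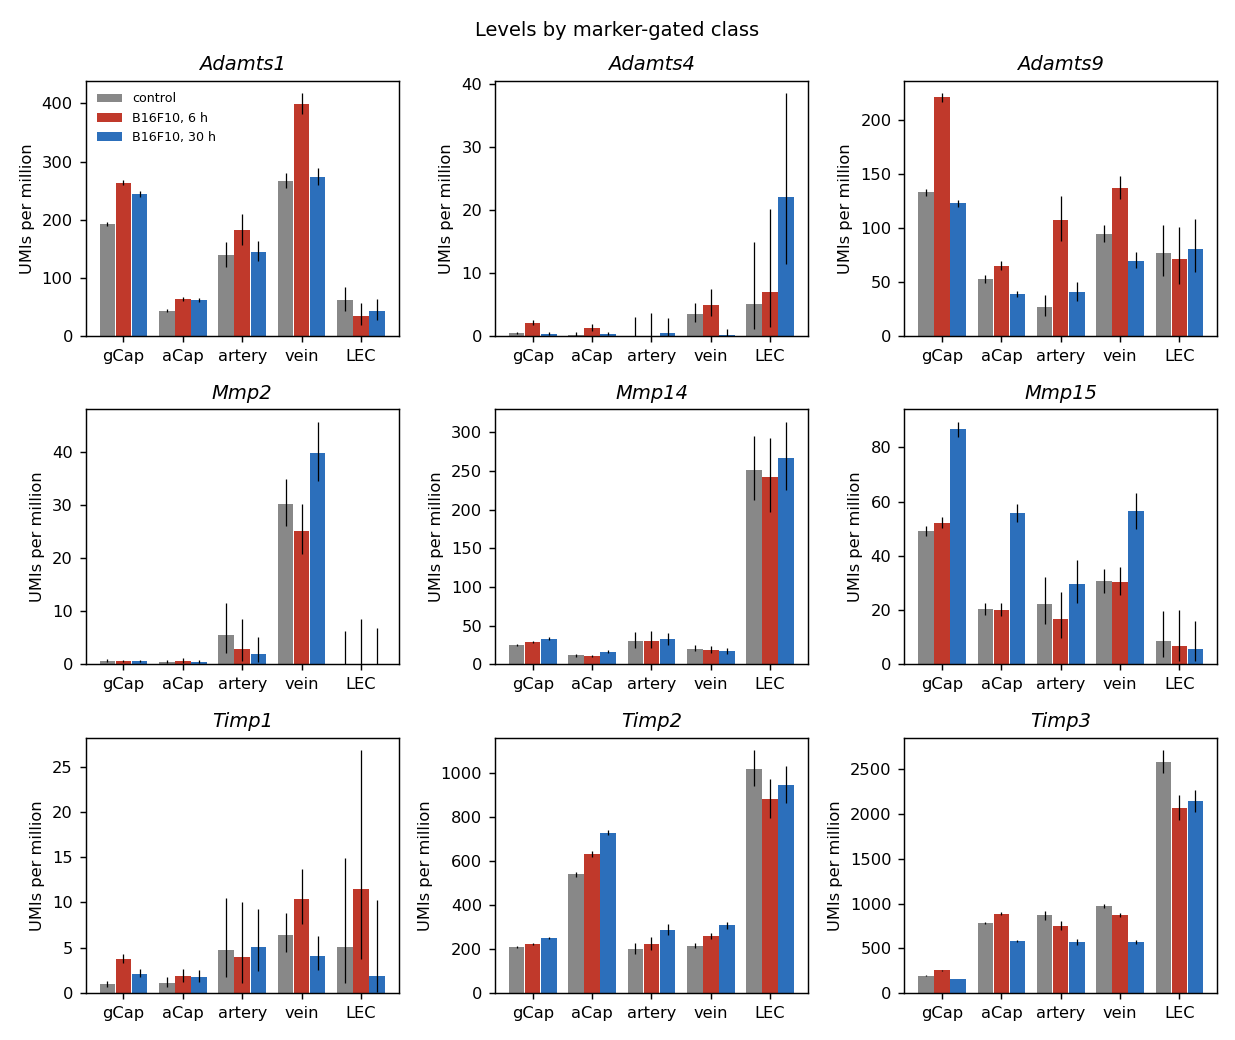
Level of each of the 9 genes by gated class, in CPM, with bars for the control, 6 h and 30 h libraries and lines for 95% counting intervals. Mmp2 stands in vein, Mmp14 in LEC, Adamts9 in gCap, and Timp2 and Timp3 are highest in LEC.

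Timp3 was at 404 CPM in control ECs, 440 CPM at 6 h and 318 CPM at 30 h, so the 6 h library was highest and the 30 h library lowest. The log2 ratio to control was 0.13 (0.10 to 0.15) at 6 h and -0.34 (-0.37 to -0.32) at 30 h. By class in the control library it was at 2583 CPM in LEC, 969 CPM in vein, 867 CPM in artery, 784 CPM in aCap and 193 CPM in gCap, with no overlap between neighbours. At 6 h the classes went opposite ways. Capillary cells were higher than in the control library, at 255 CPM in gCap (log2 ratio 0.40, 0.36 to 0.44) and 886 CPM in aCap (0.18, 0.14 to 0.21). The other classes were lower, at 872 CPM in vein (log2 -0.15, -0.21 to -0.09), 752 CPM in artery (-0.21, -0.34 to -0.07) and 2072 CPM in LEC (-0.32, -0.44 to -0.20). The difference between classes was not tested. At 30 h Timp3 was lower than control in all 5 classes, most in vein at 566 CPM (log2 -0.77) and artery at 570 CPM (-0.61), then aCap at 579 CPM (-0.44), gCap at 155 CPM (-0.32) and LEC at 2142 CPM (-0.27). Of endothelial barcodes thinned to 2000 UMIs, 37.6%, 39.9% and 30.5% had a Timp3 UMI in control, 6 h and 30 h, and 64.3%, 67.2% and 57.5% without thinning, against 20.5%, 16.9% and 22.2% of thinned barcodes with epithelial, leukocyte or platelet markers, whose exact upper limits were 36.5%, 28.3% and 37.1%. The limit at 30 h lies above the endothelial share. Empty droplets held Timp3 at 438, 403 and 287 CPM, and with the free RNA subtracted the log2 ratios were 0.14 and -0.33.

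Timp2, the partner of MMP14 in the activation of pro-MMP2, was at 280 CPM in control ECs, 297 CPM at 6 h and 373 CPM at 30 h. The libraries did not overlap in their counting intervals, and the log2 ratio to control was 0.08 (0.06 to 0.11) at 6 h and 0.41 (0.39 to 0.44) at 30 h. It was highest in LEC (1021 CPM in the control library) and aCap (540 CPM). Vein (215 CPM), gCap (210 CPM) and artery (199 CPM) were lower and overlapped. In aCap it was 633 CPM at 6 h and 729 CPM at 30 h. The 30 h log2 ratio was 0.54 in artery, 0.52 in vein, 0.43 in aCap and 0.25 in gCap, with intervals above 0. In LEC it was -0.11 (-0.28 to 0.06). Empty droplets held Timp2 at 338, 333 and 399 CPM, and with the free RNA subtracted the log2 ratios were 0.08 and 0.42.

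Timp1, the inducible inhibitor of the family, was scarce. It had 144 UMIs in the control library (1.59 CPM), 385 at 6 h (4.41 CPM) and 191 at 30 h (2.34 CPM), so the 6 h level was 2.78-fold that of control (log2 1.48, 1.20 to 1.76). In gCap it was at 0.957, 3.79 and 2.13 CPM, with log2 ratios to control of 1.99 (1.53 to 2.47) and 1.15 (0.63 to 1.69). In vein it was at 6.42, 10.3 and 4.13 CPM. The 56 barcodes with Adamts4 held 74 of its 385 UMIs at 6 h, and without them the log2 ratio to control was 1.21. Empty droplets held Timp1 at 6.84, 14.4 and 22.8 CPM, above the endothelial level in each library. With the free RNA subtracted the log2 ratio was 1.42 at 6 h, while at 30 h it went from 0.56 to -0.21.

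**Figure D4:**
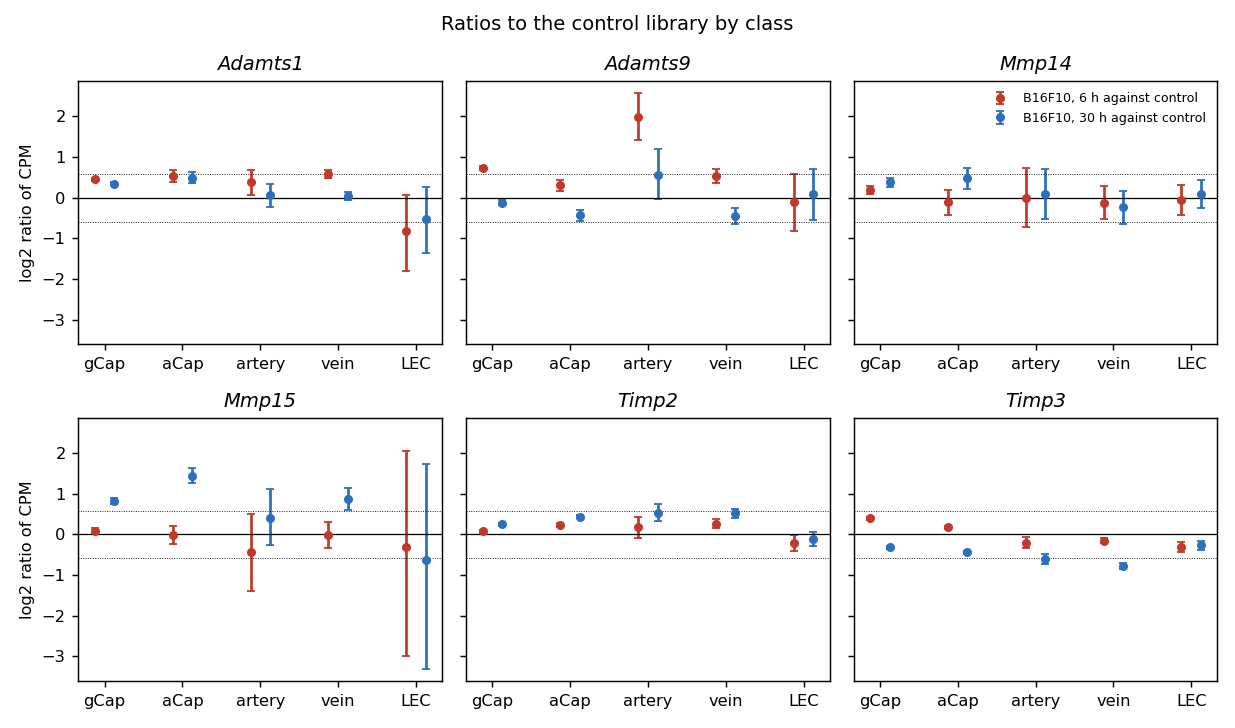
Log2 ratio to the control library by class for the 6 members that averaged 5 CPM or more, red for 6 h and blue for 30 h, with 95% counting intervals and dotted lines at 1.5-fold. Adamts9 is highest at 6 h in artery, Mmp15 at 30 h in aCap, and Timp3 lies above 0 at 6 h in gCap and aCap and below 0 in artery, vein and LEC.

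The genes with the most similar pattern were found over 15 points, the 5 classes in the 3 libraries, by Pearson's r of log2(CPM + 1) among 7164 genes. The points share their library, and r is a description. For Adamts1 these were Ndst1 (0.99), Gch1 (0.97) and Gbp2 (0.96). For Adamts9 they were Usp46 (0.84), Wsb1 (0.82) and Phldb2 (0.80), and for Adamts4 Slc25a37 (0.87), Fgd6 (0.87) and Tnfaip8l1 (0.87). Many points of Adamts4 rest on few UMIs. In control, 6 h and 30 h there were 0, 0 and 1 in artery and 3, 3 and 12 in LEC. Mmp2 was nearest to Ptgis (0.97), Bst1 (0.96) and St6gal1 (0.96), of which Ptgis and Bst1 were markers of the venous gate. Mmp14 was nearest to Magi1 (0.98), Acsf2 (0.98) and Cttnbp2 (0.97), and Mmp15 to Anks1 (0.97), Aph1a (0.94) and BC028528 (0.93). Timp1 was nearest to Enc1 (0.83), Casp4 (0.83) and Synpo (0.80), and Timp2 to Reep5 (0.98), Abcg1 (0.98) and Fndc1 (0.97). Some points of Timp1 also rest on few UMIs, with 3, 5 and 1 in LEC of control, 6 h and 30 h. Timp3 was nearest to Syn3 (0.94), the gene it lies in, then Bcr (0.93) and Cavin3 (0.90).

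Related families were mostly low in these cells. Of the 19 other Mmp genes measured, 2 passed 5 CPM and 1, Mmp16, a membrane protease, was at least 1.5-fold lower than control, at 15.96 CPM in control ECs, 9.34 CPM at 6 h and 9.41 CPM at 30 h. Of the 10175 genes that averaged 5 CPM or more, 1.36% were as much lower at 6 h and 5.01% at 30 h. Mmp16 was in venous barcodes, at 209, 148 and 129 CPM. Mmp28 was at 41.0, 33.9 and 40.5 CPM. Of 16 other Adamts genes 2 passed and neither was past 1.5-fold. Adamts10, a protease of microfibrils, was at 44.3, 38.8 and 37.0 CPM, and Adamts6 at 26.4, 20.05 and 22.3 CPM. The median log2 ratio at 6 h was -0.52 for the other Mmp genes and -0.29 for the other Adamts genes, each over 2 genes. Under 5 CPM, 3 other Mmp genes were at least 1.5-fold higher at 6 h with counting intervals off 0 (Mmp3, Mmp8 and Mmp9) and 3 other Adamts genes lower (Adamts12, Adamts17 and Adamts18), of 17 and 14 genes. The same held for 4.6% and 4.58% of the 14767 genes under 5 CPM with a UMI. Mmp9 rests on 8 and 19 UMIs. Mmp3, a stromelysin, had 47 UMIs in the control library and 216 at 6 h (log2 2.26), and Mmp8, the neutrophil collagenase, 8 and 72. Adamts17 had 222 and 65 (log2 -1.72). These genes, and those under 5 CPM named in the next paragraph, were chosen after their values had been seen. Barcodes with leukocyte markers, outside the endothelial set, numbered 12 in the control library and 36 at 6 h. The part of other cells' RNA in the levels of Mmp3, Mmp8 and Mmp9 was not tested.

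Of the Adamts-like genes, which lack the protease domain, 4 of 7 passed. Adamtsl5 was at 27.7, 21.4 and 30.2 CPM, with 122 CPM in aCap of the control library, and Adamtsl4 at 8.14, 10.2 and 7.44 CPM. Adamtsl1 was the 1 past 1.5-fold against control, lower at 30 h (6.90, 4.74 and 4.36 CPM). As much lower at 30 h were 5.01% of the 10175 genes. Of 11 Adam genes, membrane sheddases and their relatives, 7 passed. Adam15 was at 134, 160 and 127 CPM and Adam10, which sheds many receptors, at 129, 131 and 120 CPM. Adam19 was the 1 past 1.5-fold against control, higher at 30 h (8.87, 11.5 and 14.4 CPM). As much higher at 30 h were 4.85% of the 10175 genes. Among 7 inhibitors and activators, 4 passed and none of those was past 1.5-fold against control. Under 5 CPM, Timp4, the remaining inhibitor of the Timp family, was at 1.07, 1.72 and 3.13 CPM, with log2 ratios to control of 0.69 (0.31 to 1.07) and 1.55 (1.21 to 1.904). At 30 h 8.9% of the genes under 5 CPM were higher and 7.09% lower by the same rule. Pcsk6, a convertase, was at 2.67, 1.57 and 2.42 CPM, with 231 of its 243 control UMIs in LEC, where it was at 392.3, 299 and 347 CPM. Furin, which activates MMP14 and many proproteins, was at 64.6, 82.3 and 55.9 CPM, and Pcsk5, a related convertase, at 74.9, 69.4 and 95.3 CPM. Of the 10 substrates, link proteins and hyaluronan genes, only Cd44, the hyaluronan receptor, passed, at 22.8, 28.4 and 24.8 CPM. Hapln1, a link protein gene, was at 1.63, 1.56 and 2.59 CPM. Vcan, the versican gene, was at 1.02, 2.23 and 0.712 CPM, a 6 h log2 ratio of 1.12 (0.76 to 1.497), and the hyaluronan synthase gene Has2 at 0.264, 1.66 and 0.233 CPM (2.65, 2.02 to 3.34).

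The lists of early response genes also differed between libraries. Of 12 immediate early genes, 5 were at least 1.5-fold higher at 6 h and 4 at least 1.5-fold lower at 30 h than in the control library, with median log2 ratios of 0.53 and -0.46, and 1 (Nr4a1) was higher at 30 h. Of the 10175 genes, 2.06% were as much higher at 6 h, 5.01% lower at 30 h and 4.85% higher at 30 h. In control, 6 h and 30 h Fos was at 1550, 2339 and 887 CPM, Atf3 at 180, 550 and 128 CPM and Jun at 2721, 2789 and 2025 CPM. Egr1 was at 538, 968 and 354 CPM, Ier3 at 881, 1353 and 634 CPM, Zfp36 at 380, 502 and 247 CPM, Fosb at 336, 436 and 182 CPM and Nr4a1 at 13.5, 21.2 and 21.2 CPM. All 5 heat shock genes were past 1.5-fold at 6 h. Hspa1b was at 17.2, 111 and 10.4 CPM, Hspa1a at 18.1, 91.5 and 13.3 CPM and Hsph1 at 12.9, 56.4 and 20.9 CPM. Dnajb1 was at 56.0, 88.8 and 47.2 CPM and Hspb1 at 227, 382 and 304 CPM. Adamts9 shared the order of Fos and Atf3 (highest at 6 h, lowest at 30 h), and the part of such a response in the level of Adamts9 was not tested.

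**Figure D5:**
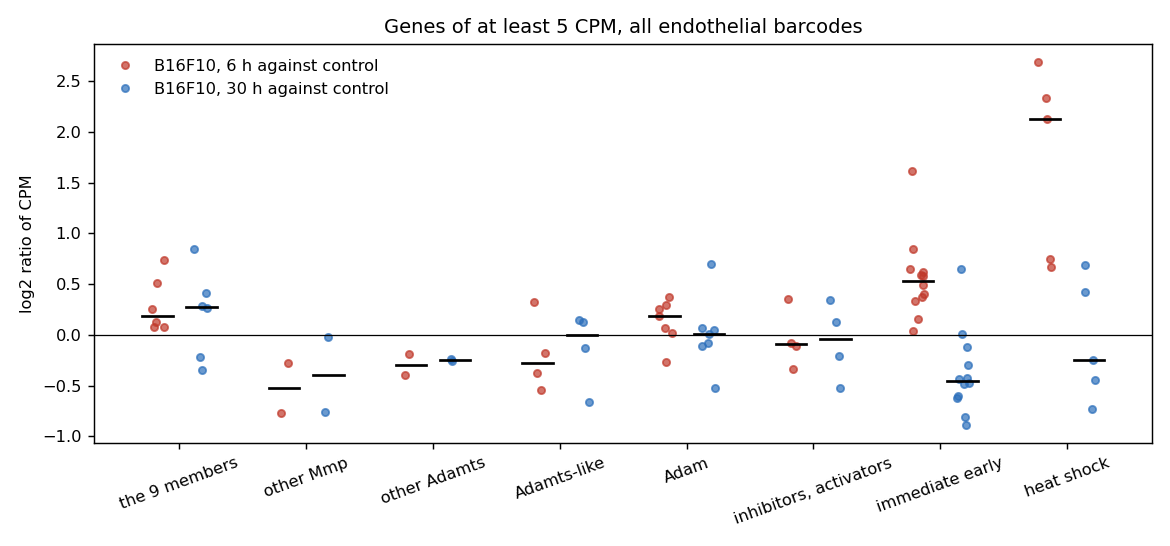
Log2 ratio to the control library in all endothelial barcodes for genes that averaged 5 CPM or more, one point a gene, red for 6 h and blue for 30 h, with black lines at the medians. The members have a median of 0.19 at 6 h and 0.28 at 30 h, and the heat shock genes of 2.12 and -0.25.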

How the data were processed

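The deposited matrices hold UMI counts of every gene in every barcode, which the authors made with Cell Ranger 7.2.0, per the file headers, on the mouse build mm10. The paper's methods state an older release of that program. The matrices were not filtered before deposit and list 1792904 to 1911655 barcodes per library, with 124085451 to 140601123 UMIs in all. Barcodes were filtered as the text states, and no doublets were removed in the main setting. A Scrublet alternative (scanpy 1.11.5, 0.8% per 1000 barcodes) is given under the alternatives.

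Counts were added up within each library and class and divided by their total to give CPM (Python 3.11.15, scipy 1.17.1). The 95% intervals are exact: Poisson for levels, conditional binomial for ratios and Clopper-Pearson for shares. With 1 library per group no test was run. The ratio script was tested on simulated data. A barcode entered aCap or vein with at least 4 of the 6 gate markers and artery or LEC with at least 3, where only 1 of these applied, and gCap with at least 3 of its own, no more than 2 of aCap and no more than 1 of artery, vein or LEC. Non-endothelial barcodes needed at least 300 genes, fewer than 2 UMIs of Pecam1 and Cdh5, and at least 3 markers of their cell type. Markers of other cell types did not exclude them, so the sets can overlap. The reference barcodes for shares met the same limits on genes as endothelial barcodes and had fewer than 2 fibroblast and fewer than 2 pericyte and muscle markers.

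The members and lists were chosen with earlier results of these data known. Besides the members, the text names from each list the 2 genes with the highest mean level and any gene of at least 5 CPM past 1.5-fold against control, and for each member the 3 most similar genes among those averaging 20 CPM or more over the points. Alternatives are listed under the dependence on processing, and 2 of them were chosen after seeing the data. Genes outside this rule are marked as such or serve as markers, hosts or subsets.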

Additional observations from a re-analysis of the deposited data

Results flagged for a closer look

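The ratios in this paragraph and the next were picked out because the same contrast went opposite ways, with counting intervals off 0 and at least 10 UMIs in each library, at the other time point or in other classes. With 1 library per group none of these differences was tested. Adamts9 had a log2 ratio to control of 0.74 at 6 h and -0.22 at 30 h, and Timp3 0.13 and -0.34.

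By class at 6 h, the log2 ratio of Timp3 was 0.40 in gCap and 0.18 in aCap but -0.21 in artery, -0.15 in vein and -0.32 in LEC. That of Timp2 was 0.083 in gCap, 0.23 in aCap and 0.27 in vein but -0.21 in LEC, the last from 384 UMIs in 54 barcodes.

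The values that follow were picked out as signals above the control library, again with counting intervals of the ratio off 0 and at least 10 UMIs in each library, in non-endothelial barcodes, which the endothelial comparisons leave out. In barcodes with fibroblast markers, Adamts4 was at 124 CPM at 6 h (50 UMIs in 51 barcodes) against 27.9 CPM in the control library, and Timp1 at 184 against 45.1 CPM. At 30 h these barcodes held Adamts9 at 74.6 against 36.5 CPM and Timp2 at 984 against 735 CPM. Barcodes with pericyte and muscle markers numbered 28 at 6 h and 48 in the control library. In them Adamts4 was at 152 CPM at 6 h (18 UMIs) against 43.9 CPM (11 UMIs), and Timp3 at 1880 against 1547 CPM. A barcode could hold markers of several cell types and count in each set.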

How the results depend on the processing

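Of 78 alternative counts of members past 1.5-fold, 61 were scored as the same and 17 moved by 1 gene. A count within 1.5-fold of the main one was scored as the same, so a count of 3 that changed by 1 gene was not a move. Such changes occurred. At 6 h the log2 ratio of Timp1 was 0.51 with 5 CPM added, and that of Adamts1 was 0.60 with other cells' RNA removed. Timp1, 30 h against 6 h, was at 0.28 with barcodes of at least 300 genes. The 1 member lower at 6 h (Mmp2) became 0 with barcodes of at least 300 genes, with barcodes holding other cells' RNA removed, in gCap barcodes only, with the class mix of the control library and with 5 CPM added. The 1 member higher at 30 h became 2 with median-of-ratios scaling and with totals without mitochondrial and ribosomal RNA genes. The count was also 2 with barcodes of at least 300 genes, with doublets removed and with other cells' RNA removed. The mean of barcode CPM, gCap only and the control class mix gave 2 as well. The gene added was Timp1, whose main log2 ratio was 0.56 against a threshold of 0.585. With other cells' RNA removed it was Adamts4 instead, at 1.03. The 2 members higher at 30 h than at 6 h became 1 with other cells' RNA removed, in gCap only, with the control class mix and with 5 CPM added. The causes were not tested.

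Of 351 alternative log2 ratios of single members 271 stayed within the counting interval, 79 moved further and 1 ratio past 1.5-fold changed sign: Timp1, 30 h against 6 h, was 0.28 with barcodes of at least 300 genes, -0.91 in the main setting and between -1.63 and -0.36 in the other alternatives. Of 84 class ratios 1 did so: Mmp2 in artery, 6 h against control, was 0.27 with 1 more marker in each gate and -0.93 in the main setting, from 3 and 7 UMIs. The log2 ratio of Adamts9 at 6 h lay between 0.71 and 0.76 and that of Mmp15 at 30 h between 0.78 and 0.93, each over 13 alternatives, while that of Adamts4 at 6 h ranged from 0.65 (5 CPM added) to 3.63 (other cells' RNA removed) and that of Timp1 at 30 h from -0.21 to 1.802. Removing barcodes with other cells' RNA left 2359, 4215 and 7449 endothelial barcodes. No paired analysis was possible because each group had 1 library.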
